A study of Mus musculus with 47 samples.

Results

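A set of 10 genes of the forebrain postsynapse was followed across diets in the brains of 3xTg mice: Camk2a, Camk2b, Camkv, Nrgn, Ppp3ca, Itpka, Dlg4, Homer1, Ddn and Kalrn. They were picked by name, as 10 of the 55416 gene identifiers in the count tables, and all 10 were found and passed the filter on low counts in both sexes. They were chosen with the male contrasts between each restricted diet and Control already known, so the male differences from Control are a description here and carry no test.

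All mice were 3xTg, a model that carries human APP, tau and presenilin transgenes with familial disease mutations, so the Control group carried them too and no library came from a non-transgenic brain. From 6 months of age, male and female mice ate for 9 months either an amino acid-defined Control diet or the same kind of diet low in isoleucine (IleR), leucine (LeuR) or valine (ValR). Values were analysed for 37 of 47 labelled libraries, each from 1 brain sample. Males gave 4 libraries on Control, 3 on IleR, 3 on LeuR and 4 on ValR. Females gave 6 on Control, 5 on IleR, 6 on LeuR and 6 on ValR. A further 10 labelled male libraries were not analysed here. The study's methods mention that outliers were taken out after a principal component analysis, and whether these are the same libraries is not stated. Libraries are named below by diet and the number in their label. The deposited values are expected counts per gene, which totalled 12682687 to 25722333 in the male and 10672599 to 21370973 in the female libraries.

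These genes serve the excitatory synapses of forebrain neurons, where calcium that enters a dendritic spine is turned into lasting changes of synaptic strength. Camk2a and Camk2b encode the main subunits of calcium/calmodulin-dependent kinase II, Camkv encodes a related pseudokinase, and Nrgn (neurogranin) binds calmodulin while calcium is low. Ppp3ca encodes a catalytic subunit of calcineurin, the phosphatase that opposes the kinase, and Itpka an inositol trisphosphate kinase that also bundles spine actin. Dlg4 (PSD-95) and Homer1 are scaffolds of the postsynaptic density, Ddn (dendrin) is a dendritic protein and Kalrn (kalirin) activates small GTPases in spines. Camk2a and Nrgn are textbook markers of cortex and hippocampus, while Camk2b and Itpka are made in the cerebellum as well. The name of the set does not make every member particular to the forebrain. In male ValR libraries, which held few cortex and hippocampus markers (below), Ppp3ca and Dlg4 kept means of 52.2% and 47.8% of Control.

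Since the male values of the members fell together, their promoter windows were read from RefSeq (GRCm38.p6; 250 bases before to 50 after each start). At least 1 window was found for 7 genes, and 10 windows in all. Camk2a, Ddn and Ppp3ca had none. The 3 shown are ones whose 250 upstream bases touch no annotated exon. Camk2b is at chr11:6065749-6065998 on the minus strand and Homer1 at chr13:93303507-93303756 on the plus strand, both inside the span of the gene's longer transcript models. Itpka is at chr2:119742087-119742336 on the plus strand, directly before its single annotated transcript. They stand for the member with the smallest male difference from Control, a scaffold and the kinase of inositol trisphosphate. Capitals mark matches on either strand to 4 motifs. The short form of the cAMP response element was searched as TGACG. The E-box, which helix-loop-helix factors bind, was searched as CANNTG. A part of the site of the Egr factors was searched as GCGTG, and the box bound by the TATA-binding protein as TATAAA.
Camk2b: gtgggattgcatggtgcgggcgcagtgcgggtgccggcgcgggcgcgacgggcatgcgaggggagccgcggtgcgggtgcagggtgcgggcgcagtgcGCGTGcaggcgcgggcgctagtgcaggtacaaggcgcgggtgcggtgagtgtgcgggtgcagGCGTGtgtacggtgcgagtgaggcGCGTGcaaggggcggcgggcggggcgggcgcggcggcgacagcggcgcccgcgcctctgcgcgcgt
Itpka: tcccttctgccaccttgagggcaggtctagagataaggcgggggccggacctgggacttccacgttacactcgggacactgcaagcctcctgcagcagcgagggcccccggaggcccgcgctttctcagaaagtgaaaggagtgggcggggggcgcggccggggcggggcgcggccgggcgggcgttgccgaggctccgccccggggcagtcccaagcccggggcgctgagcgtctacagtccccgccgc
Homer1: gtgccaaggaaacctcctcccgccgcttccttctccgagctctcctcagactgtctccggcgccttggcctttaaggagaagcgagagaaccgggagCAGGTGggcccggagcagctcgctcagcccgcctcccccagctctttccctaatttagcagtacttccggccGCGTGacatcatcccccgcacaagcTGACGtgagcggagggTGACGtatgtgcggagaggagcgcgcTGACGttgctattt

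No motif was in the windows of all 7 genes. Homer1 held 3 copies of TGACG and Itpka none of the motifs searched. Of the 10 member windows, TGACG was in 2, an E-box in 6 and GCGTG in 4. Of all 32851 windows of this length, 20.8% held TGACG, 72.3% an E-box and 32.4% GCGTG. The full element TGACGTCA, which contains the short form, was in no member window and in 1.79% of all windows, and TATAAA in none and in 13.6%.

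All libraries held neuronal RNA, but they differed in which brain region their marker genes came from, and the members moved with that. In the male Control libraries, 9 cerebellar markers summed to 14.5 to 45.2 CPM (counts scaled to the normalized library total), against 942 to 2618 in IleR, 35.3 to 903 in LeuR and 970 to 3539 in ValR. The 10 brainstem and spinal cord markers summed to 0.605 to 9.73 CPM in Control, where 7 of the 10, among them Hoxa5, Hoxb3 and Dbh, had at most 3 counts in every library, and to 73.2 to 279 in IleR, 2.68 to 672 in LeuR and 123 to 649 in ValR. The 7 cortex and hippocampus markers ran the other way, with 255 to 636 CPM in Control, 11.1 to 36.9 in IleR, 6.76 to 113 in LeuR and 6.84 to 11.9 in ValR, where Fezf2 had at most 3 counts in every library. The 5 striatal markers summed to 108 to 1357 CPM in Control, 133 to 164 in IleR and 107 to 154 in ValR, and to at most 212 in LeuR. The 8 pan-neuronal markers differed far less, from 5522 to 7112 CPM in Control and 4514 to 5783 in the restricted male libraries. In bulk tissue, fewer cells of a type and less RNA per cell cannot be told apart. Whether the pieces of brain taken differed between libraries was not tested.

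Per kilobase of annotated exon, the levels of the members in male Control brains ran from neurogranin down to Homer1. Nrgn averaged 686 CPM per kilobase, Camk2a 474, Ddn 216, Camkv 117 and Ppp3ca 115. Camk2b averaged 85.9, Itpka 58.9, Dlg4 48.5, Kalrn 25.4 and Homer1 19.1 CPM per kilobase. The order of the means was the same in female Control brains, from 547 for Nrgn to 14.3 for Homer1, although the sexes were normalized separately. The ranges of neighbours in this order overlapped over the Control libraries of each sex. Exon lengths were summed over all transcripts of a gene, which lowers the value of genes with many annotated forms, such as Dlg4, Kalrn, Camk2b and Homer1.

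On each restricted diet, all 10 members were lower than Control in male brains, with a median log2 fold change of -2.77 on IleR, -2.56 on LeuR and -3.15 on ValR, where the medians over all 22197 genes tested were 0.04, 0.05 and 0.03. On IleR and ValR the log2 fold changes were widest for Ddn, Nrgn and Camk2a, on LeuR for Nrgn and Homer1, and on each diet narrowest for Camk2b. By edgeR's quasi-likelihood test at an adjusted p under 0.05, 9 of 10 members were called lower on IleR, 8 on LeuR and 9 on ValR, beside 8.68%, 6.33% and 12.4% of all genes called lower in the same fits. These contrasts chose the members, and nothing is read from the counts. Camk2b was not called on IleR and ValR, and Camkv and Ddn were not called on LeuR. The shares of all genes above belong to the fit of all 4 diets with every male library. None is given for the other fits named next. Fitted with only the groups compared, LeuR against Control had 0 members called. Leaving out Control 3 took the LeuR count to 3, Control 1 or LeuR 19 to 4 and LeuR 20 to 5, and leaving out IleR 14 or IleR 17 took the IleR count to 6.

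Camk2a (ENSMUSG00000024617) is the most abundant kinase II gene of the forebrain. It read 3779.9, 5282, 1282 and 3814 CPM in Control 1, 3, 4 and 5 and 414, 216 and 177 CPM in IleR 13, 14 and 17. LeuR 19, 20 and 21 read 76.0, 619 and 1038 CPM, and ValR 7, 9, 10 and 12 read 141, 209, 106 and 160.2 CPM. Every restricted library lay below every Control library, and among the restricted diets ValR was the tightest group and LeuR the widest. The ValR mean was 4.35% of the Control mean, the LeuR mean 16.3% and the IleR mean 7.60%. The log2 fold changes were -4.54 (SE 0.68) on ValR, -2.62 (SE 0.70) on LeuR and -3.73 (SE 0.74) on IleR.

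Camk2b (ENSMUSG00000057897, chr11:5969644-6066362), its partner subunit, stayed far closer to Control. It read 915, 893, 594 and 735 CPM in the 4 Control libraries, 428, 527 and 580.0 CPM in IleR, 314, 460 and 555 CPM in LeuR, and 535, 482, 631 and 663 CPM in ValR 7, 9, 10 and 12. Only Control 4 and ValR 10 and 12 crossed over between the groups. Camk2b differed from Control by log2 fold changes of -0.63 (SE 0.21) on IleR, -0.83 (SE 0.21) on LeuR and -0.46 (SE 0.19) on ValR.

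The make-up of kinase II thus read differently by library. Of the 4 genes Camk2a, Camk2b, Camk2d and Camk2g summed per kilobase, Camk2a held 59.7% to 82.5% in male Control, 19.3% to 37.5% in IleR, 10.4% to 56.9% in LeuR and 11.2% to 20.3% in ValR. The ratio of Camk2a to Camk2b per kilobase was 2.64 to 7.23 in Control and 0.205 to 0.531 in ValR. In the female libraries the Camk2a share was 36.4% to 78.9% in Control, 54.9% to 77.9% in IleR, 49.8% to 78.9% in ValR and 12.8% to 80.4% in LeuR. The lowest female value, in LeuR 45, lay among the male ValR values.

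**Figure D1:**
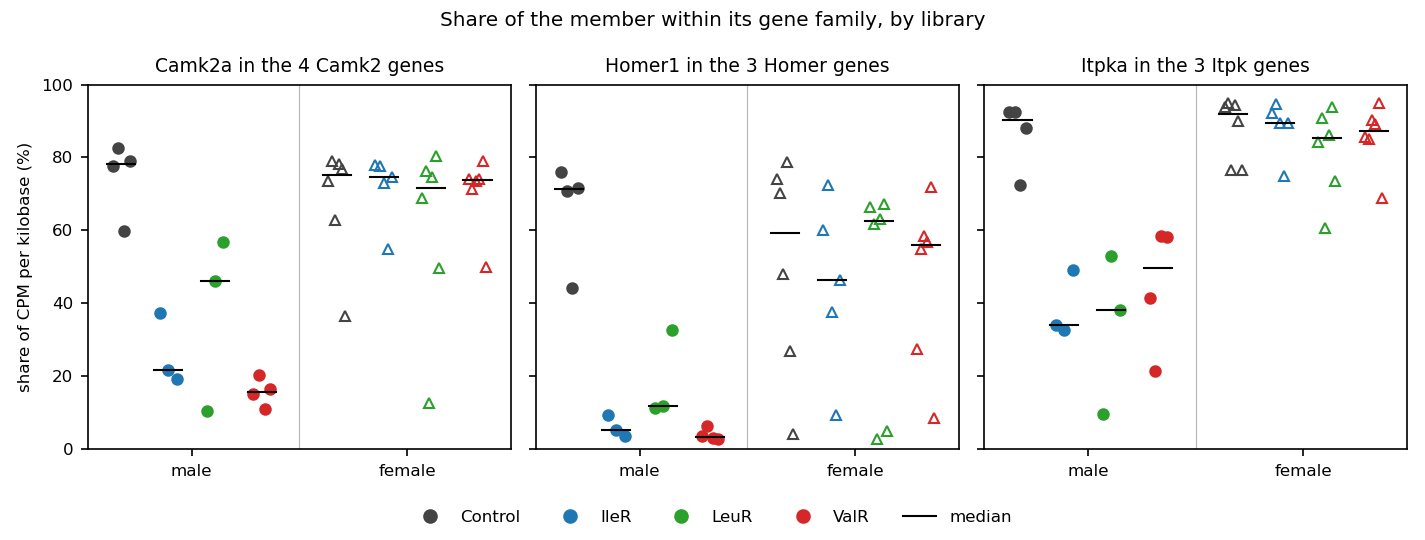
Share of Camk2a among the 4 Camk2 genes, of Homer1 among the 3 Homer genes and of Itpka among the 3 Itpk genes, as a percentage of their summed CPM per kilobase (y axis, 0 to 100%), with filled circles for male and open triangles for female libraries, colours for diets and lines for group medians. The male ValR libraries hold 11.2% to 20.3% Camk2a and 2.72% to 6.31% Homer1, below every male Control library, and the lowest female values, 12.8% Camk2a and 2.91% Homer1, are both in LeuR 45.

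Camkv (ENSMUSG00000032936, chr9:107935674-107949691), the pseudokinase, read 520.3, 541, 346 and 347 CPM in Control 1, 3, 4 and 5. It read 102, 71.4 and 47.3 CPM in IleR, 29.4, 178 and 324 CPM in LeuR, and 58.1, 68.1, 15.6 and 26.8 CPM in ValR. LeuR 21, at 324 CPM, came close to the lowest Control library. Camkv differed from Control by log2 fold changes of -2.59 (SE 0.67) on IleR, -1.31 (SE 0.63) on LeuR and -3.40 (SE 0.62) on ValR.

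Nrgn (ENSMUSG00000053310, chr9:37544492-37552904), the calmodulin store, read 1124, 1286, 425 and 1152 CPM in Control 1, 3, 4 and 5. It read 93.8, 59.1 and 74.8 CPM in IleR and 8.98, 129 and 139 CPM in LeuR. The ValR libraries read 10.4, 12.2, 19.4 and 46.4 CPM, a mean of 2.22% of Control. No restricted library reached a Control library. Nrgn differed from Control by log2 fold changes of -3.73 (SE 0.81), -3.44 (SE 0.79) and -5.51 (SE 0.78) on IleR, LeuR and ValR.

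Ppp3ca (ENSMUSG00000028161, chr3:136670124-136937727), the calcineurin subunit, had one of the narrower differences. Control read 639 to 1479 CPM, IleR 458 to 556, LeuR 325 to 498 and ValR 493 to 694. ValR 10 and 12, at 682 and 694 CPM, overlapped Control 4. The log2 fold changes were -1.20 (SE 0.25), -1.46 (SE 0.25) and -0.95 (SE 0.23) on IleR, LeuR and ValR. Itpka (ENSMUSG00000027296, chr2:119742337-119751263) was lower in all restricted libraries, with 56.5 to 149 CPM in Control, 17.8 to 31.5 in IleR, 4.49 to 36.4 in LeuR and 10.1 to 46.5 in ValR. Its log2 fold changes were -2.25 (SE 0.63), -2.57 (SE 0.64) and -1.79 (SE 0.55).

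Of the scaffolds, Dlg4 (ENSMUSG00000020886, chr11:70016942-70047522) kept means of 46.6% to 53.1% of Control, while Homer1 (ENSMUSG00000007617, chr13:93299635-93405129) was far lower. Dlg4 read 445 to 774 CPM in Control, 296 to 306 in IleR, 247 to 462 in LeuR and 279 to 323 in ValR, so that LeuR 21 alone overlapped Control. Homer1 read 293, 339, 66.9 and 215 CPM in Control 1, 3, 4 and 5. It stayed within 22.5 to 41.5 CPM in all 10 restricted libraries, with means of 13.1% of Control on IleR, 14.0% on LeuR and 12.4% on ValR. Its log2 fold changes were -2.94 (SE 0.43), -2.86 (SE 0.43) and -3.03 (SE 0.39), and those of Dlg4 were -1.11 (SE 0.22), -0.92 (SE 0.22) and -1.08 (SE 0.20). The gene-level counts pool the long forms of Homer1 with the short activity-induced form.

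Ddn (ENSMUSG00000059213, chr15:98803777-98809490), the dendritic protein dendrin, had the widest log2 fold changes of the members on IleR and ValR, but not on LeuR. It read 994, 1212, 441 and 614 CPM in Control 1, 3, 4 and 5, 98.9, 7.21 and 4.27 CPM in IleR, and 2.45, 224 and 165 CPM in LeuR. The 4 ValR libraries read 2.18, 3.18, 2.40 and 4.68 CPM, a mean of 0.382% of Control. Ddn differed from Control by log2 fold changes of -4.49 (SE 1.27) on IleR, -2.65 (SE 1.15) on LeuR and -8.04 (SE 1.36) on ValR. Without IleR 13 the IleR value was -7.16. On 177 exonic bases Ddn overlaps B130046B21Rik on the opposite strand, and whether the counting used strand is not given in the sources used here.

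Kalrn (ENSMUSG00000061751, chr16:33969073-34573532), the spine GTPase activator, read 673, 833, 307 and 634 CPM in Control 1, 3, 4 and 5. It read 61.1 to 85.5 CPM in IleR, 51.4 to 141 in LeuR and 60.1 to 67.8 in ValR. The log2 fold changes were -3.14 (SE 0.37), -2.55 (SE 0.36) and -3.28 (SE 0.33). All restricted libraries read less Kalrn than Control 4, which was the lowest Control library for each of the 10 members.

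Counted over the members, every IleR library lay below every Control library for 10 of 10 genes, every LeuR library for 9 and every ValR library for 8. The same held for 14.3%, 9.70% and 13.2% of all genes tested. These, too, are values that the choice of genes used.

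**Figure D2:**
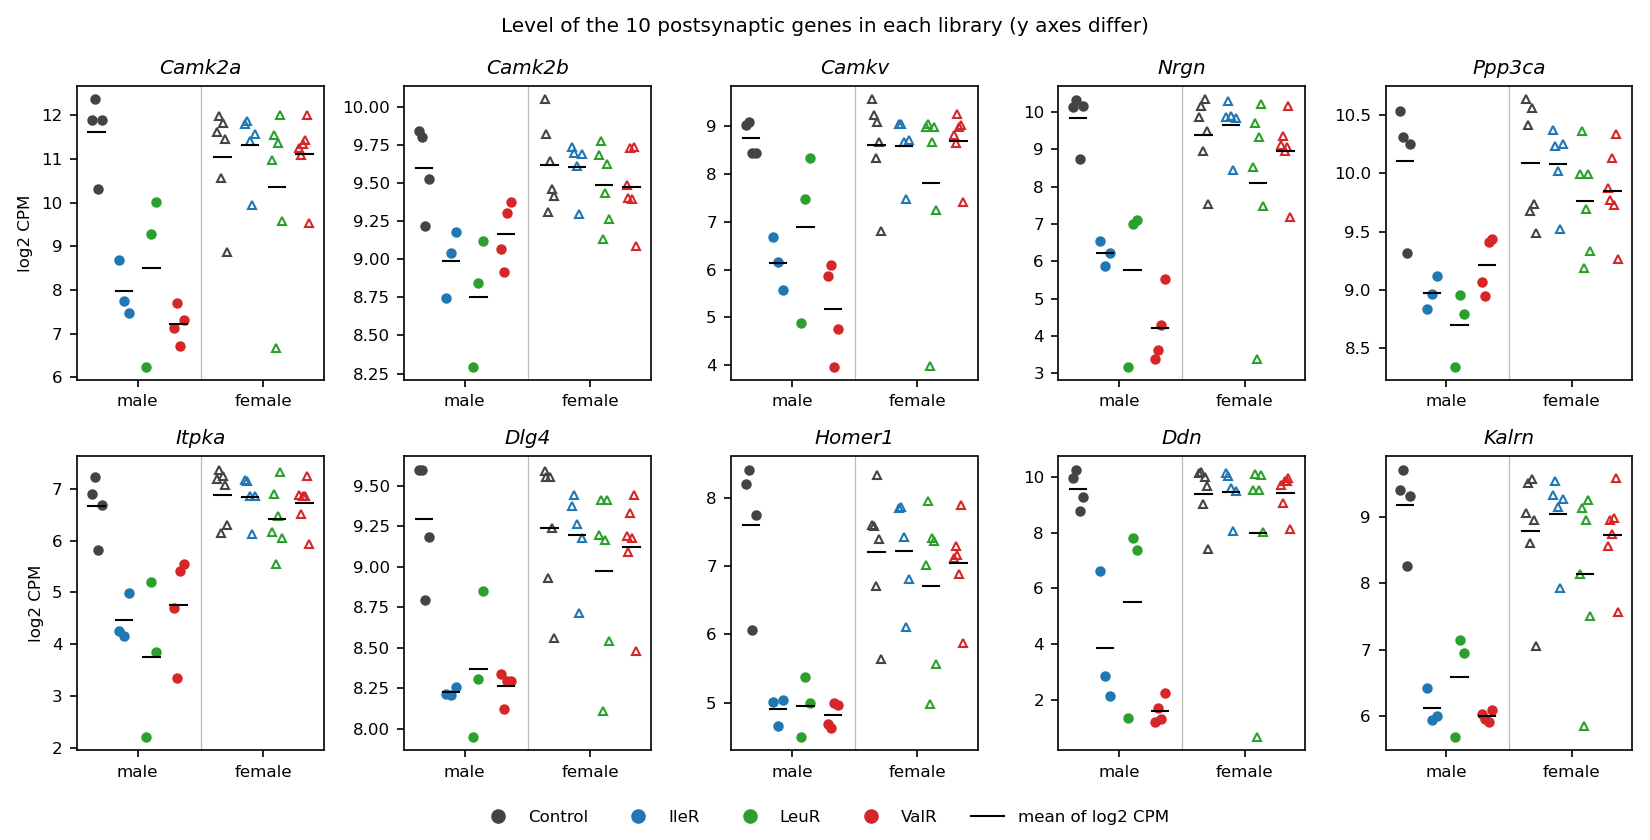
Level of each of the 10 genes in log2 CPM (y axis, range differs by panel) in the 14 male libraries (filled circles) and 23 female libraries (open triangles), coloured by diet, with a line at each group's mean. In males the restricted libraries lie below Control with few overlaps, and in females the diets overlap throughout, with LeuR 45 lowest for 9 genes and ValR 36 for Camk2b; male and female libraries were normalized separately.

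The restricted diets were also compared with one another in males, using libraries that had entered the contrasts with Control as well. Each such value is the difference of a pair of contrasts known when the genes were chosen, so it is a description with no test. Between ValR and LeuR the log2 difference of Ddn was -5.39 (SE 1.25), and Ddn was the only member past the threshold in edgeR, beside 2.75% of all genes called in either direction. The values of Nrgn (-2.07, SE 0.71), Camkv (-2.09, SE 0.62) and Camk2a (-1.92, SE 0.64) were not past it. Neither ValR against IleR nor IleR against LeuR had a called member by edgeR, DESeq2 or limma voom, and edgeR called 0% of all genes in both. At an unadjusted p under 0.05, edgeR had 2 members for ValR against IleR and 0 for IleR against LeuR, and 628 and 2512 of all genes. The call of Ddn was lost on leaving out a single library in 9 of 14 fits and with limma voom, and without LeuR 19 the count rose to 4 members. The 2.75% belongs to the edgeR fit of every male library, and no share is given for these other fits.

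**Figure D3:**
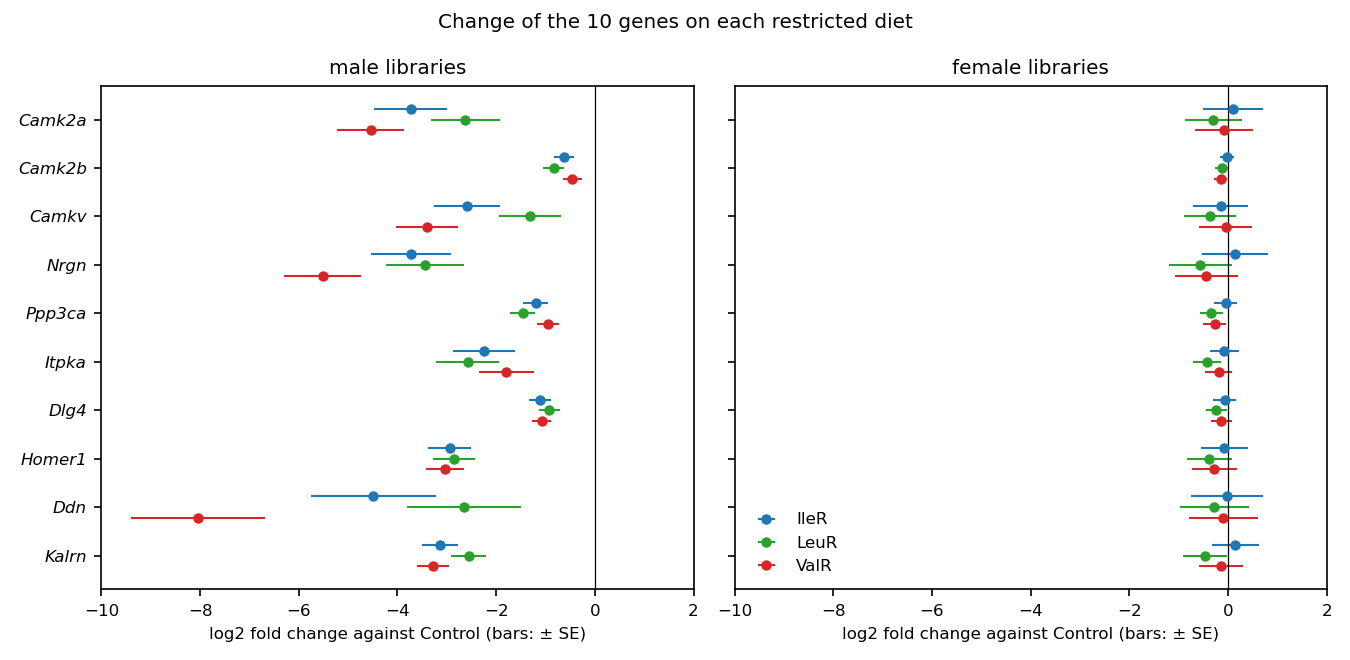
Log2 fold change of each gene against Control (x axis, the same scale in both panels, bars ± SE) for IleR, LeuR and ValR in male (left) and female (right) libraries. Male values run from -8.04 for Ddn on ValR to -0.46 for Camk2b on ValR, and female values from -0.56 to 0.15.

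In female brains no member passed the test on a restricted diet. The median log2 fold change of the 10 genes was -0.04 on IleR, -0.35 on LeuR and -0.14 on ValR, with ranges of -0.15 to 0.15, -0.56 to -0.13 and -0.44 to -0.05. By edgeR's quasi-likelihood test 0 of 10 members were called on each diet, beside 0% of all 20344 genes on each. At an unadjusted p under 0.05 the members called were again 0 on each diet, and 577, 820 and 777 of all genes were past it on IleR, LeuR and ValR. DESeq2 and limma voom called 0 members as well. The lowest adjusted p of a member was 0.968, on LeuR.

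The female means hid libraries that stood far from the others of their diet. Camk2a read 465, 2995 and 4044 CPM (lowest, median and highest) in Control, 102, 2322 and 4148 in LeuR, and 748, 2508 and 4095 in ValR. The 5 IleR libraries read 3547, 3758, 2711, 992 and 3048 CPM. The lowest values belonged to Control 30, LeuR 45, ValR 36 and IleR 41, so that a low library occurred on every diet.

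The same libraries were lowest for Nrgn and Ddn. For Nrgn, the lowest, median and highest were 185, 827 and 1297 CPM in Control, 10.4, 506 and 1195 in LeuR, and 145, 542 and 1146 in ValR, and the IleR libraries read 931, 1259, 946, 346 and 913 CPM. For Ddn they were 170, 906 and 1157 CPM in Control, 1.48, 736 and 1102 in LeuR, and 281, 874 and 989.6 in ValR, and IleR read 1123, 1032, 775, 267 and 726 CPM. LeuR 45 came to 1.48 CPM of Ddn and 10.4 CPM of Nrgn, among or below the male ValR values of 2.18 to 4.68 and 10.4 to 46.4 CPM. For Homer1 the female ranges were 49.6 to 322 CPM in Control, 69.1 to 233 in IleR, 31.3 to 246 in LeuR and 58.3 to 238 in ValR. Camk2b varied least, from 543 CPM in ValR 36 to 1058 CPM in Control 25.

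The remaining members overlapped in the same way. Kalrn read 133 to 754 CPM in female Control, 243 to 739 in IleR, 57.6 to 609 in LeuR and 189.5 to 762 in ValR. Camkv read 112 to 754, 177 to 528, 15.7 to 531 and 169.7 to 606 CPM on the 4 diets in that order. No member had all libraries of a restricted diet below Control, and 0.138%, 0.0885% and 0.0590% of all genes tested did so on IleR, LeuR and ValR.

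The level of the members followed the regional markers in both sexes. To put a number on it, a hindbrain score subtracted the average of the forebrain markers (cortex, hippocampus and striatum) from that of the cerebellar and brainstem markers, both in log2 CPM, with no member in any list. It ran from -8.15 to -4.67 in male Control, 1.93 to 4.12 in IleR and 4.27 to 5.20 in ValR, and was -4.29 in LeuR 21, 1.01 in LeuR 20 and 4.03 in LeuR 19. Over the same libraries the mean log2 CPM of the 10 members was 8.38 to 9.71 in Control, 6.37 to 7.00 in IleR and 5.91 to 6.36 in ValR, and 7.54, 7.54 and 5.27 in LeuR 21, 20 and 19.

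Female libraries with a high score had low members on any diet. LeuR 45 had a score of 4.32 and a member mean of 5.75 log2 CPM, near the male ValR libraries. ValR 36, LeuR 48, Control 30 and IleR 41 had scores of 1.07, 0.21, 0.16 and -0.59 and member means of 7.85, 7.86, 7.71 and 8.16. The other 18 female libraries had scores of at most -1.67 and member means of at least 8.62. Control 30 held 3381 CPM of cerebellar markers and LeuR 45 held 3201 CPM, with 80.6 and 9.05 CPM of cortex and hippocampus markers.

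Male LeuR 21 stood off this pattern. It had few hindbrain markers, with 35.3 CPM of cerebellar and 2.68 CPM of brainstem genes, as in Control, yet its members averaged 7.54 log2 CPM and its cortex and hippocampus markers summed to 77.2 CPM, below every Control library. Control 4, with 45.2 CPM of cerebellar markers and 255 CPM of cortex and hippocampus markers, had the lowest members of Control at 8.38.

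**Figure D4:**
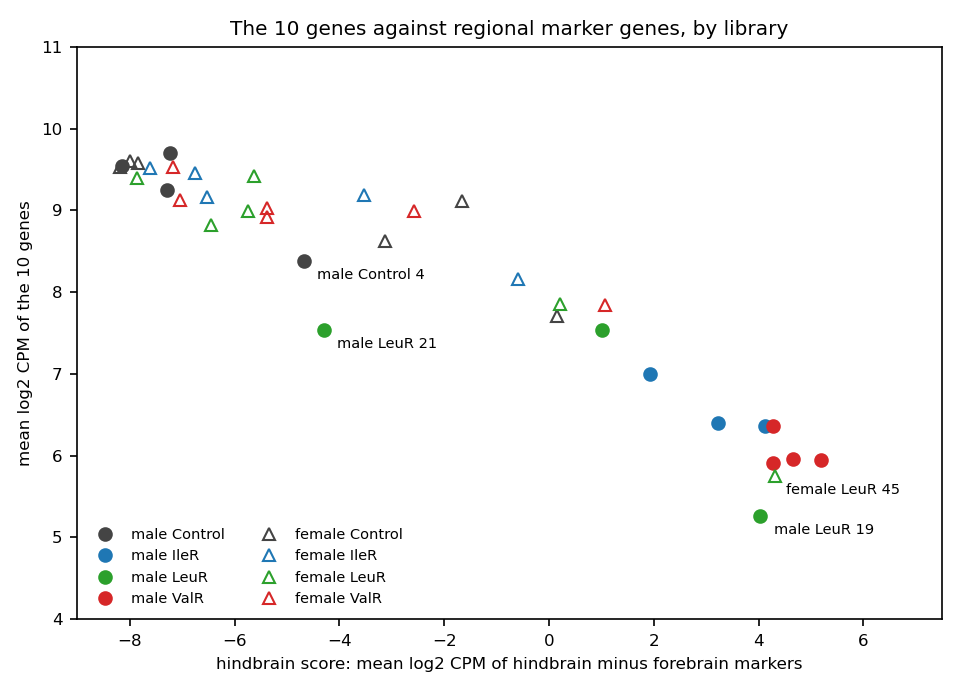
Mean log2 CPM of the 10 genes (y axis) against the hindbrain score (x axis, log2 scale), with 1 point per library, filled circles for male, open triangles for female and colours for diets. Libraries of both sexes lie on a falling band, with female LeuR 45 next to the male ValR libraries and male LeuR 21 below the band; the sexes were normalized separately.

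With the score as a covariate, the edgeR fits called 0 members lower on IleR, LeuR and ValR in males, and 1, 2 and 0 members had an unadjusted p under 0.05. In this fit 6, 3 and 5 of 10 log2 fold changes were above 0. Over all genes 0, 1 and 0 were called lower and 3, 15 and 0 higher at the adjusted threshold. The shares of all genes above 0 or at the unadjusted p are not given, so nothing is read from those counts of members. The score did not overlap between male Control, at most -4.67, and the restricted diets, at least -4.29, so diet and regional make-up cannot be told apart in the male libraries.

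The ValR difference from Control was set side by side between the sexes in a fit of all 37 libraries. The male minus female difference of the log2 fold change was -7.96 (SE 1.44) for Ddn, -5.09 (SE 1.06) for Nrgn and -4.46 (SE 0.95) for Camk2a. The male contrast that chose the genes is one side of this difference, so it is a description with no test. Counted in the same way, edgeR called 6 members for ValR (Camk2a, Camkv, Nrgn, Homer1, Ddn and Kalrn), beside 4.25% of all genes, where DESeq2 called 8 and limma voom 0. For IleR and LeuR edgeR called 0 members, beside 0.0979% and 0.00445% of all genes, and 10 and 7 members had an unadjusted p under 0.05. DESeq2 called 8 and 2 members there, and limma voom 0. Without Control 4 of the males, edgeR called 7 members for IleR and 3 for LeuR. The shares of all genes belong to the edgeR fit of all 37 libraries at the adjusted threshold. None is given for the other fits or for the unadjusted p, so nothing is read from these counts.

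Relatives of the members did not all follow them in male brains. Of 18 relatives (paralogs, other calmodulin-dependent kinases and the calmodulin-binding Pcp4), 6, 6 and 4 were called lower and 2, 2 and 3 higher on IleR, LeuR and ValR, with medians of -0.21, -0.28 and -0.30. Over all genes 8.68%, 6.33% and 12.4% were called lower and 6.63%, 3.81% and 11.1% higher in these fits. Homer3, the Homer scaffold of Purkinje cells, was higher by 3.72 (SE 0.58), 1.98 (SE 0.56) and 4.27 (SE 0.58) on the log2 scale, where Homer1 was lower. It read 7.02 to 15.9 CPM in Control, 79.9 to 238 CPM in IleR, 11.1 to 76.7 CPM in LeuR and 96.4 to 311 CPM in ValR. LeuR 21, at 11.1 CPM, lay within the Control range.

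Within the 3 Homer genes per kilobase, Homer1 held 44.1% to 75.9% in Control, 3.65% to 9.25% in IleR, 11.2% to 32.7% in LeuR and 2.72% to 6.31% in ValR. In female Control libraries the share ran from 4.11% in Control 30 to 78.9%. Itpkb, a second inositol trisphosphate kinase, was higher by 1.51 (SE 0.27), 1.39 (SE 0.27) and 1.42 (SE 0.26) where Itpka was lower. Itpka held 72.6% to 92.5% of the 3 Itpk genes in Control and 21.3% to 58.5% in ValR.

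Camk2d, the subunit best known from heart, was called higher on ValR alone (0.67, SE 0.21), with 0.56 (SE 0.22) on IleR and 0.37 (SE 0.22) on LeuR. Camk2g was not called on any diet, with values of -0.41, -0.16 and -0.28. The calcineurin paralog Ppp3cb (-0.69, -0.66 and -0.67), the PSD-95 paralog Dlg3 (-1.19, -0.93 and -1.17), Homer2 (-0.88, -1.11 and -0.87) and the kinase Camk1d (-1.08, -1.04 and -0.91) fell on all 3 diets. Dlg1 and Dlg2 fell on IleR (-0.45 and -0.68) and LeuR (-0.54 and -0.87) and were not called on ValR (-0.34 and -0.48). Ppp3cc, Itpkc, Camk1, Camk1g, Camk4, Pnck, Pcp4 and the kalirin paralog Trio were not called on any diet. Among them, Trio read -0.01, -0.66 and 0.13 while Kalrn was lower on each.

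**Figure D5:**
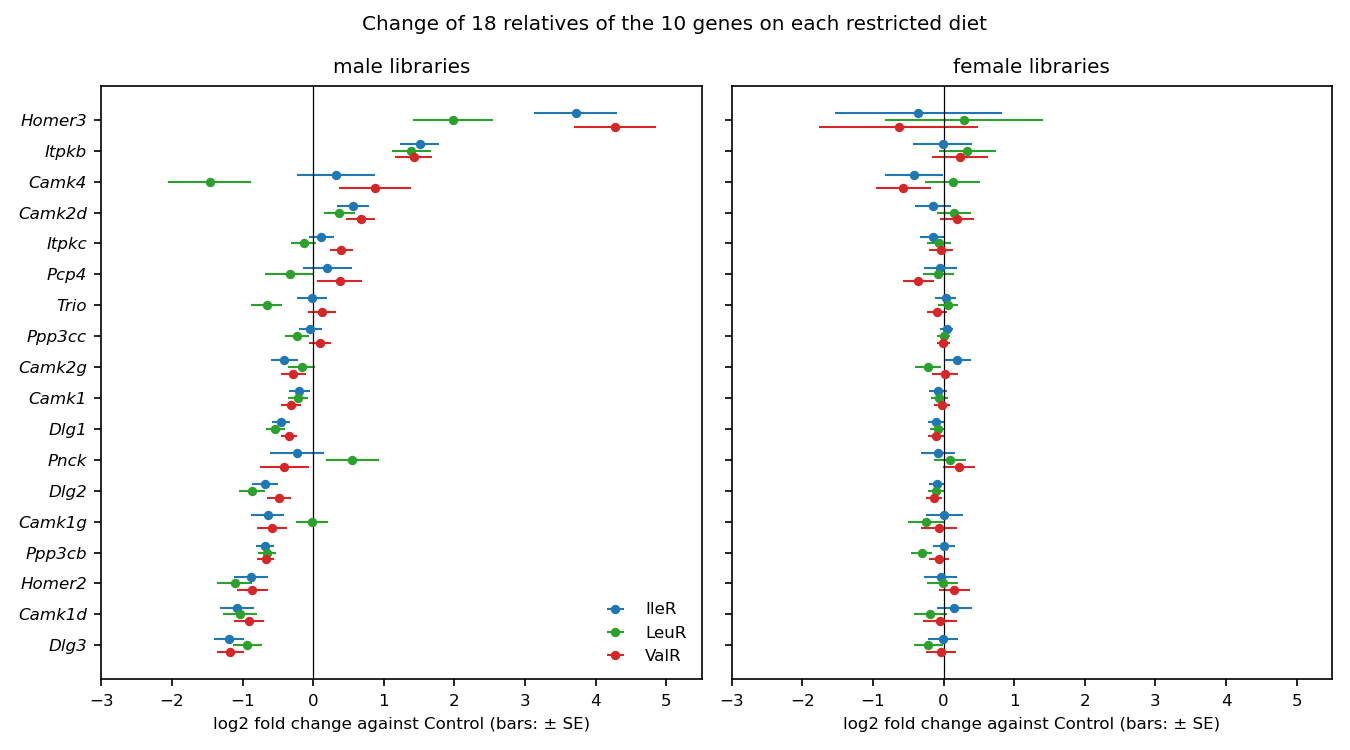
Log2 fold change against Control (x axis, bars ± SE) of the 18 relatives on IleR, LeuR and ValR in male (left) and female (right) libraries, ordered by the male ValR value. Homer3 and Itpkb are the highest in males, at 4.27 and 1.42 on ValR, and the female values scatter around 0 with none called.

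Other postsynaptic genes were counted from lists chosen with the male results known. Of 26 scaffolds and adaptors, 20 were called lower on each diet and 0, 0 and 1 higher on IleR, LeuR and ValR, with medians of -1.13, -1.22 and -0.97, beside 8.68%, 6.33% and 12.4% of all genes lower and 6.63%, 3.81% and 11.1% higher. The one higher was Cacng2, an auxiliary AMPA receptor subunit known from cerebellar granule cells (0.41, SE 0.11), named here after its value was seen. Of the most abundant, Agap2, a GTPase-activating partner of PI3-kinase, fell by 2.11, 1.71 and 2.17 on the log2 scale, Cyfip2, a part of the actin-regulating WAVE complex, fell by 0.73, 0.75 and 0.57, and the motor Kif1a read -0.25, -0.05 and -0.33 with no call.

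Of 32 genes of calcium and kinase signalling, 21 were called lower on each diet and 0, 0 and 1 higher, with medians of -0.86, -0.94 and -0.81, beside the same 8.68%, 6.33% and 12.4% lower and 6.63%, 3.81% and 11.1% higher over all genes. Among the most abundant of them, Calm2, which encodes calmodulin, fell by 0.61, 0.59 and 0.49 on the log2 scale, and Calm3, which encodes the same protein, by 0.52, 0.40 and 0.44. Itpr1, the inositol trisphosphate receptor of Purkinje cells, was the one called higher, on ValR (1.77, SE 0.57), and was likewise named after its value was seen. In females 0 genes of these 3 lists were called on any diet by edgeR.

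Immediate early genes and markers of other cells were also counted in males. Of 9 immediate early genes 7, 7 and 8 were called lower on IleR, LeuR and ValR (all genes 8.68%, 6.33% and 12.4%), with sums of 304 to 1346 CPM in Control and 92.7 to 187 CPM in the restricted libraries. Oligodendrocyte markers summed to 4646 to 9570 CPM in Control and 6472 to 18509 CPM in the restricted libraries, with 0 of 8 called. Astrocyte sums ran from 4392 to 5562 CPM in Control and 3387 to 5744 CPM in the restricted libraries, and microglial sums from 378 to 450 and from 259 to 486 CPM. Choroid plexus sums ran from 14.5 to 2951 CPM in Control and 20.9 to 4910 CPM in the restricted libraries, and blood sums from 582 to 4053 and from 1138 to 19888 CPM. The part of these genes and cell types in the levels of the members was not tested.

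The members moved with one another in both sexes. Over the 23 female libraries, the closest pair by log2 CPM was Camk2a and Kalrn (Pearson r = 0.98), and Camk2a was also the member closest to Nrgn and to Camkv (both 0.97). Camk2b was closest to Ppp3ca (0.94) and farthest from Ddn (0.62). Over the 14 male libraries, Kalrn and Homer1 were closest (0.97) and Camkv and Camk2b farthest apart (0.50). Of the genes outside the list, those most like the mean of the standardized member profiles were Chn1, Agap2, Ptk2b, Tmem121b and Synpo in females (r = 0.98 for each) and 2010300C02Rik (r = 0.996), Agap2, Cck, Wasf1 and Fam131a (r = 0.99 for each) in males. These values describe libraries that share the regional differences above and carry no test.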

How the data were processed

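RNA was taken from the left hemisphere of 3xTg brains, per the study's methods. The labels say brain, although their extraction text names liver. Their protocols describe both a polyA-enriched and a total RNA library kit. The authors deposited expected counts per Ensembl gene (reads aligned to GRCm38.p5, in tables named for RSEM, the aligner not given in the sources used here), and these were rounded to whole numbers. Their own comparison tables (log2 fold changes, p-values and adjusted p-values) were not used. The submitters' processing notes name R 3.4.3, edgeR and limma, and the methods state that outliers were removed. The labels name no batch. Symbols came from GENCODE M21, which matched 52135 of 55416 identifiers.

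Each sex was fitted apart, with 4 diets in one edgeR 4.0.16 quasi-likelihood model (R 4.3.3) after TMM normalization and Benjamini-Hochberg adjustment over all genes, with a threshold of 0.05. A gene was kept where at least one diet had 1 count or more in all its libraries. The difference of the diet effect between the sexes was tested over 8 groups of 37 libraries. Levels are CPM after TMM, with a prior count of 2 on the log2 scale. DESeq2 1.42.0, limma 3.58.1 (voom), other filters and size factors, fits of only the groups compared, a hindbrain score as covariate and leaving out each library were the alternatives. The scripts were tested on simulated counts.

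The members and lists were chosen with earlier results of these data known. All 10 members, all 18 relatives and the 3 most abundant genes of each other list are named, except for an item that is not reported here. Over 73 replicate pairs the lowest chi-square per degree of freedom was 8.43, so none were counted as one. The study counts its groups in animals, and the labels give each library its own number. Xist against Y-linked genes matched the labelled sex in all 14 male and 23 female libraries.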

Additional observations from a re-analysis of the deposited data

Results flagged for a closer look

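In 11 of 60 combinations of a member with a group of 4 to 6 libraries, 1 library lay apart from the rest by Dixon's test of the gap against the range on the log2 CPM scale, always at the low end. Chance alone gives about 1 in 20 such groups. The 11 values came from 4 libraries, so they are not independent. Female IleR 41 was apart for Camk2a (9.95), Camk2b (9.30), Camkv (7.47), Nrgn (8.44) and Kalrn (7.93). Female ValR 36 was apart for Camk2a (9.55), Camkv (7.41) and Dlg4 (8.48). Female LeuR 45 was apart for Camkv (3.98) and Ddn (0.68), and male Control 4 for Nrgn (8.73). Each of these 4 libraries had the highest hindbrain score of its group, at -0.59, 1.07, 4.32 and -4.67 in this order. The part of the score was not tested, and the share over all genes was not counted.

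For 6 members the interaction of ValR with sex was past the threshold in edgeR, and limma voom called 0. One side of it is the male contrast known when the genes were chosen, so the values are a description and not independent evidence of a difference between the sexes. The male minus female difference on the log2 scale was -7.96 for Ddn, -5.09 for Nrgn, -4.46 for Camk2a, -3.35 for Camkv, -3.15 for Kalrn and -2.76 for Homer1. The hindbrain score was 4.27 to 5.20 in the male ValR libraries and -8.15 to -4.67 in male Control, and at most 1.07 in the female ValR libraries. Its part in the difference was not tested.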

How the results depend on the processing

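With the hindbrain score as a covariate 0 members were called in males on IleR, LeuR and ValR against Control and 0 on ValR against LeuR. The median of the members turned to 0.20 on IleR, where Camk2a (0.59), Camk2b (0.36), Camkv (0.50), Ddn (0.62), Nrgn (0.30) and Dlg4 (0.11) changed sign. Camk2a (0.10), Camkv (0.49) and Ddn (1.14) did so on LeuR, and Camk2a (0.48), Camk2b (0.67), Camkv (0.20), Ppp3ca (0.073) and Dlg4 (0.32) on ValR. In edgeR the adjusted p of those that changed sign on IleR was 0.82 to 0.98. The score did not overlap between male Control and the restricted diets, so these signs are not read as reversed effects. With only the groups compared, 0 members were called on LeuR against Control and 0 on ValR against LeuR, where DESeq2 called 3 and limma voom 0. For the diet by sex difference on IleR, edgeR with DESeq2 size factors called 1, DESeq2 8 and edgeR with filterByExpr 1; on LeuR DESeq2 called 2; on ValR limma voom called 0. Leaving out 1 library gave 6 to 10 members on IleR, 3 to 8 on LeuR and 8 to 10 on ValR against Control, 0 to 4 on ValR against LeuR, and 0 to 7, 0 to 3 and 4 to 7 for the diet by sex difference on IleR, LeuR and ValR. The share of all genes called in each of these fits is not given here, and the cause of these differences was not tested. Of the counts under the alternatives other than leaving out 1 library, 65 stayed within 1.5 times and 13 did not. The 65 include counts of 0 that stayed at 0, as in every female comparison with Control. The same held in males for ValR against IleR and for IleR against LeuR. No paired analysis was possible because each library has its own number and no number is shared between diets. The number of male libraries, 3 or 4 per diet, limits the precision of every male value.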
